A study of Mus musculus with 8 samples.

Results

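JunB cKO wounds were compared with wild type wounds at day 30 after injury, across 8456 genes of a table of 46048 genes that have a row with a single symbol. A gene was included when its level reached 10 FPKM (fragments per kilobase of transcript and mapped library size) in either genotype, and symbols listed at more than 1 locus were taken at their most abundant one. The study deleted JunB in mouse skin and sequenced RNA from unperturbed, plucked and wounded skin. The wild type animals are labelled JunB +/+ and the JunB cKO animals JunB -/-, both on the C57BL/6 strain, and both received full-thickness punch wounds in the shaved back. Per the study's methods the floxed *JunB* alleles were removed by Cre recombinase under the *K14* promoter, which is active in basal keratinocytes and their progeny, so that fibroblasts, fat, vessel, muscle and immune cells of JunB cKO skin still carry *Junb*. The labels list 2 libraries per genotype at day 30, and the methods state that RNA of several samples was pooled for each library. The table holds 1 value per genotype, so no spread between libraries can be computed from it, and the differences below are given without a test.

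JunB is a subunit of AP-1, a family of paired Jun and Fos proteins that bind a short palindromic DNA site and switch genes in keratinocytes according to stress, growth factors and differentiation state. A healed full-thickness wound is a scar, a new epidermis over dense dermal collagen, and it usually lacks the hair follicles and sebaceous glands of the skin around it. A biopsy of such a site also takes in some of the surrounding skin with follicles, dermal fat and the thin muscle sheet of mouse skin. Sebaceous glands are lobes of lipid-filled cells attached to the hair follicle, and they share many lipid synthesis enzymes with fat cells.

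Pairs of FPKM values are given with wild type first and JunB cKO second, and differences as log2((JunB cKO + 1)/(wild type + 1)), called the log2 ratio, where a positive value means higher in JunB cKO. A gene was counted as changed at a 2-fold limit, a log2 ratio of at least 1 or at most -1. Of the 8456 genes, 346 were at least 2-fold higher (4.09%), while 286 were lower by 2-fold or more (3.38%) in JunB cKO wounds, and 7824 stayed within 2-fold. The median log2 ratio was -0.02, and the middle 90% of genes lay between -0.79 and 0.89. Among the 7605 protein-coding genes the shares were smaller, with 149 at least 2-fold higher (1.96%), while 118 were lower by 2-fold or more (1.55%). A log2 ratio above 0 was found in 47.6% of all genes and in 47.1% of the protein-coding genes. Just inside the level limit were *Fbxl18*, with 10.0007 FPKM in its higher genotype, *Cgref1* and *Arhgap31*, and just outside it were *Tesk1*, *Ccdc18* and *Snx15*, with 9.98 FPKM each in the higher genotype. A gene low in 1 genotype entered only through its level in the other, so that such genes had to differ. For each gene named below with 1 value under 10 FPKM and 1 above it, the direction thus followed from the level limit. With a mean of both genotypes of at least 10 FPKM in its place, 7887 genes remained, 268 of them at least 2-fold higher, while 207 were lower by 2-fold or more.

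**Figure D1:**
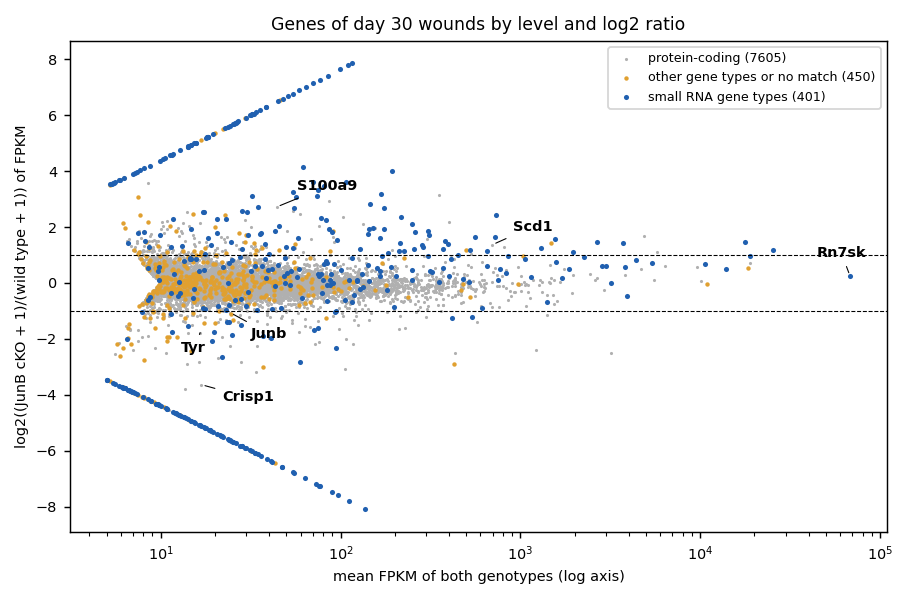
Each point is a gene of the wound table, by its mean FPKM over both genotypes (log axis) and its log2 ratio of JunB cKO over wild type. Grey points are protein-coding genes, blue points are small RNA gene types and orange points are other types, dashed lines mark 2-fold, and the 2 straight arms are genes listed at 0 in 1 genotype, 76 in wild type and 118 in JunB cKO.

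The sums of FPKM over all these genes differed between genotypes, at 712577 and 828072. Small RNA genes held 183507 and 286020 of these sums, which is 25.8% in wild type and 34.5% in JunB cKO. Rescaling both columns to the same sum, as TPM would be, lowered the median log2 ratio by 0.21 and turned the balance, with 260 genes at least 2-fold higher, while 420 were lower by 2-fold or more, so that 38.2% of the changed genes were then higher against 54.7% before. The sums used for rescaling include the small RNA genes, and rescaling without them was not tested. Differences of about this size depend on the scaling, and medians are given below with their value after rescaling where its sign differs. From the steps between the lowest values of single-exon receptor genes, 1 FPKM on 1 kb stood for 34.1 reads in wild type and for about 31.4 in JunB cKO. The JunB cKO figure rests on 3 loci. A level of 10 FPKM on a gene of 1 kb thus rests on about 341 and 314 reads, which bounds the counting error only. Protein-coding genes also differed by base composition, and the median log2 ratio went from -0.14 in the class of genes with the lowest GC content of the transcript to 0.15 in the class with the highest, of 10 classes of nearly equal size. In the latter 4.86% were at least 2-fold higher against 1.58% in the lowest class.

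*Junb* itself, at chr8:84976910-84978718 (GRCm38), was at 33.4 and 15.4 FPKM in the wounds, a log2 ratio of -1.06. Less than the full level was thus lost in the whole biopsy. The remaining *Junb* of cells outside the epidermis and incomplete deletion within it cannot be told apart in these data. No other Jun or Fos gene passed the 2-fold limit among the 6 AP-1 genes at 10 FPKM or more. *Jund*, its close relative, was at 23.6 and 30.0 FPKM (log2 ratio 0.33), and *Jun* at 30.9 and 32.9 (0.09). *Fos*, the best-known immediate early partner of the Jun proteins, was at 15.6 and 10.3 (-0.55). *Fosl2* was at 32.2 and 36.3 (0.17), and *Jdp2*, a repressor that pairs with Jun proteins, at 12.6 and 11.8 (-0.09). Low-level partners were *Atf3* at 7.55 and 8.52 FPKM, *Fosl1* at 1.17 and 0.736, *Fosb* at 1.39 and 0.318, and *Batf* at 2.87 and 5.15. None of the 13 immediate early genes such as *Egr1*, *Dusp1* and *Klf4* passed the 2-fold limit, and their median log2 ratio was 0.00, or -0.20 after rescaling, with *Myc* the highest at 14.0 and 23.7 FPKM.

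The labels' protocol speaks of isolated keratinocytes for this series, whereas the wound samples are titled skin biopsies, so the tissue was checked against its markers. All 6 keratinocyte markers were present, among them *Krt14*, at 694 and 967 FPKM, and *Krt10*, at 1141 and 1770. The 6 fibroblast markers summed to 10532 and 13412 FPKM, and the skeletal muscle markers to 4461 and 5127, so that the values of both genotypes included RNA of the dermis and the muscle layer. In such bulk tissue, fewer cells of a type and less RNA per cell cannot be told apart.

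Among gene lists with at least 5 members, those of neutrophils, antibody-producing cells, stefins, red blood cells, fat cells and fatty acid synthesis had the highest medians in JunB cKO wounds, and keratins and keratin-associated proteins of the hair shaft, inner root sheath genes and pigment cell genes the lowest. Of 57 gene lists, 52 had at least 5 members at 10 FPKM or more. Among those, 6 had a median log2 ratio of at least 0.5 and 4 a median of at most -0.5, whereas dermal collagen, basal keratinocyte, macrophage and Notch genes stayed close to the median of all genes.

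**Figure D2:**
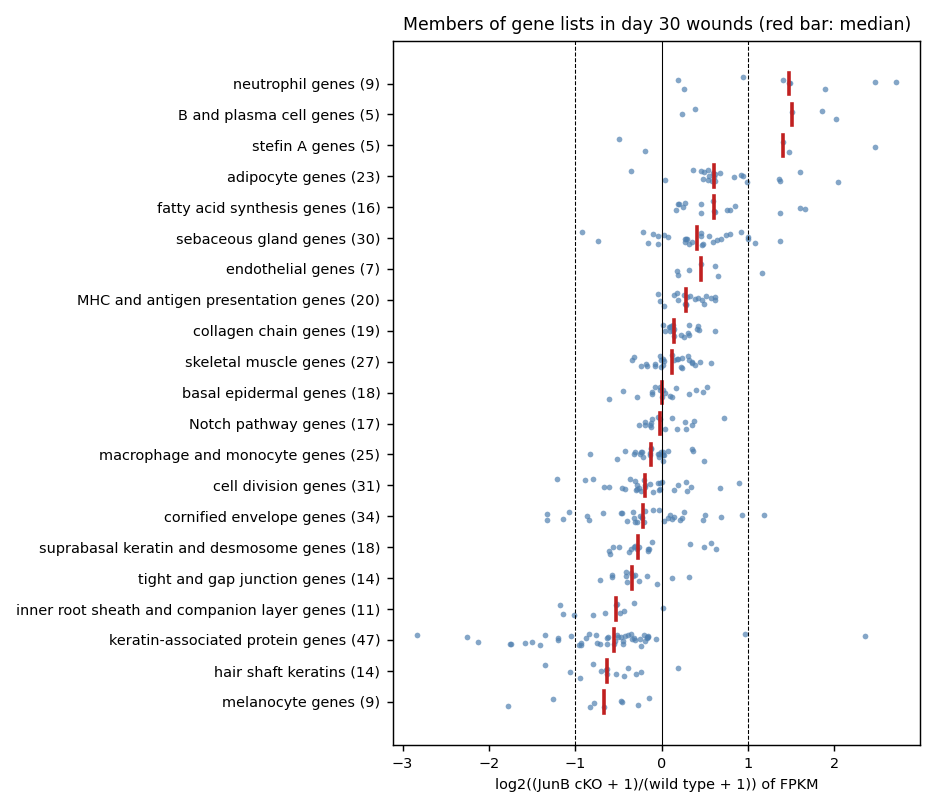
Each point is a gene at 10 FPKM or more, placed by its log2 ratio of JunB cKO over wild type in day 30 wounds, in 21 gene lists with the number of members in brackets. Red bars are medians, from 1.51 for B and plasma cell genes to -0.66 for melanocyte genes, and dashed lines mark 2-fold.

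Promoters of 4 genes that lie in these groups or among the extremes are shown because they hold the AP-1 site and passed the 2-fold limit, *Stfa3* upward and the other 3 downward. They are RefSeq promoters of GRCm38.p6, from 250 bases before to 50 bases after the transcript start, written 5′ to 3′ on the gene's strand with the AP-1 site TGANTCA in capitals. *Ivl* encodes involucrin, a scaffold protein of the cornified envelope (chr3:92573686-92573985, minus strand). *Krtap13-1* encodes a keratin-associated protein of the hair shaft (chr16:88728612-88728911, plus strand). *Prss36* encodes a serine protease (chr7:127946676-127946975, minus strand). *Stfa3* encodes a stefin A inhibitor of cysteine proteases (chr16:36455343-36455642, minus strand).
Ivl: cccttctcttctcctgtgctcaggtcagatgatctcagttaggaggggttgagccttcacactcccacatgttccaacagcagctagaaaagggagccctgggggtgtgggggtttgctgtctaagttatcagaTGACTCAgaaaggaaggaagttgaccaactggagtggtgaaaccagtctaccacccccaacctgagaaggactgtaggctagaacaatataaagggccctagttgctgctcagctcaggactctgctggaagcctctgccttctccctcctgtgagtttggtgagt
Krtap13-1: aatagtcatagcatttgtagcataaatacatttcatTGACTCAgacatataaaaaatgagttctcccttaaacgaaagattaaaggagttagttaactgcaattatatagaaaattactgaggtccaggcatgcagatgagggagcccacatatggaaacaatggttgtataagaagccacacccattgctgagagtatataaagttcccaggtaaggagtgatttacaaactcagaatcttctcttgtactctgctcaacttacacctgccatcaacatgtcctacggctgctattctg
Prss36: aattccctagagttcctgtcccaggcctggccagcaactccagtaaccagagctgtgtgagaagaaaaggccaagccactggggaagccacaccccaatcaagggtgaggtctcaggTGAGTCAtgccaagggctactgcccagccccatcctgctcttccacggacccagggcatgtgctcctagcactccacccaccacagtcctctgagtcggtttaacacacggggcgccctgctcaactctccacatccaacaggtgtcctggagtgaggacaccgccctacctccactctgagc
Stfa3: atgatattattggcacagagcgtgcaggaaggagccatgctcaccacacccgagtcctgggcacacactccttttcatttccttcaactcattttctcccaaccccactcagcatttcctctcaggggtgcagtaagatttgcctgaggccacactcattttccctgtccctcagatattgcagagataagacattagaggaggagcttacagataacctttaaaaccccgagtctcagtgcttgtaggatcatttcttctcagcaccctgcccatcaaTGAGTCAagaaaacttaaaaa

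The site begins 116 bases before the start in *Ivl*, 214 in *Krtap13-1* and 133 in *Prss36*, and in *Stfa3* it lies after the start. The motif TGANTCA reads the same on both strands, and it does not overlap the longer cyclic AMP element TGACGTCA. Among 6057 of the 7605 protein-coding genes with a promoter in the RefSeq table, 417 held TGANTCA (6.88%), against 7.81% of all 32851 promoters of the table. It was present in 4 of 115 genes at least 2-fold higher (3.48%) and in 9 of 92 genes at least 2-fold lower (9.78%). The element TGACGTCA was present in 222 of the 6057 genes (3.67%), in 2 of those at least 2-fold higher and in 4 of those at least 2-fold lower, against 1.79% of all promoters. The other 3 higher genes with TGANTCA were *Alg3*, *Zkscan1* and *Cbarp*. Among the lower ones were the hair shaft genes *Krtap4-7*, *Krtap4-16* and *Krtap27-1*, which belong to families of similar copies, and *Capn8*. These are counts of letters in a short window and not of bound sites.

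Neutrophil genes were higher in JunB cKO wounds. Of 28 genes with a row, 9 reached 10 FPKM, 6 of these were at least 2-fold higher, none was lower, and the median log2 ratio was 1.48. Of the higher genes, *Il1b* and *Stfa2* reached 10 FPKM in JunB cKO alone, so their direction followed from the level limit. Over the 6 genes with a mean of at least 10 FPKM the median was 1.68. *S100a9*, at chr3:90692632-90695721, was at 10.9 and 77.5 FPKM (log2 ratio 2.72). Its partner *S100a8*, with which it forms calprotectin, a metal-binding protein of neutrophils that stressed keratinocytes make as well, was at 36.7 and 139 (1.89). *Il1b*, the inflammatory cytokine interleukin-1 beta, was at 4.25 and 13.7 (1.49). Also higher were 3 stefin A genes of the same list, *Stfa3* at 17.6 and 102 (2.47), *BC100530* at 14.6 and 42.6 (1.48) and *Stfa2* at 4.69 and 14.1 (1.40). Stefins inhibit cysteine cathepsins, and the copies of this family are similar enough that reads may be shared between them. Of the 5 genes of the stefin list, the other 2 lay below 0, *Cstb* at 119.7 and 84.9 (-0.49) and *Csta1* at 310.0 and 272 (-0.19). The median of that list was 1.40, and 0.64 over the 4 members with a mean of at least 10 FPKM.

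The defining neutrophil markers were scarce by comparison. *Ly6g* was listed at 0 in both genotypes, *Cxcr2*, the chemokine receptor that draws neutrophils into tissue, was at 0.794 and 1.57 FPKM, and *Retnlg* at 0.546 and 1.72. The receptor *Csf3r* was at 1.80 and 5.60. The granule genes *Mmp8*, at 0.893 and 0.533, and *Mmp9*, at 8.56 and 3.79, were not higher in JunB cKO. The 6 markers together summed to 50.8 and 225 FPKM, nearly all of it *S100a8* and *S100a9*. Which cells carried the *S100a8* and *S100a9* RNA was not tested. Related inflammatory genes differed in the same samples: *Lcn2*, an iron-scavenging defence protein, was at 2.70 and 12.4 (1.86), and *Chil1*, a chitinase-like protein, at 10.8 and 34.1 (1.57). Of the 11 antimicrobial and defence genes at 10 FPKM or more, those 2 were at least 2-fold higher and the median was -0.13, with *Saa3* the lowest at 15.1 and 8.02. Of the 2, *Lcn2* reached 10 FPKM in JunB cKO alone, so its direction followed from the level limit. *Krt6b*, a keratin of activated wound-edge keratinocytes, was at 3.44 and 17.3 (2.04), whereas its neighbour *Krt6a* was at 101 and 105 (0.04), *Krt16* at 34.9 and 53.3 (0.60) and *Krt17* at 591 and 629 (0.09). *Krt6b* too reached 10 FPKM in JunB cKO alone.

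Cytokine, chemokine and receptor genes did not move as a group. Of 12 interleukin and TNF family genes, *Il1b* and *Il34*, a ligand of the macrophage growth factor receptor at 5.71 and 16.3 FPKM (1.37), were at least 2-fold higher, and the median was -0.09. Both genes reached 10 FPKM in JunB cKO alone, so their direction followed from the level limit. *Il33*, an alarmin of barrier tissues, was at 20.7 and 40.8 (0.94), *Il1rn*, which blocks the interleukin-1 receptor, at 37.5 and 34.7 (-0.11), and *Tnf* was under the level limit at 2.12 and 0.558. Among 18 interleukin receptor genes only *Il17rc*, a subunit of the interleukin-17 receptor, passed the limit, at 12.2 and 51.4 (1.99). None of 11 chemokine genes did, with a median of 0.05 that was -0.16 after rescaling. The highest of them were *Ccl27a*, which guides T cells to skin, at 133 and 132, and *Cxcl16* was the most raised at 14.1 and 20.2 (0.48). The neutrophil attractants *Cxcl1*, at 0.0613 and 1.12 FPKM, and *Cxcl2*, at 1.05 and 7.85, were below the limit for inclusion in both genotypes.

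Macrophage genes were level between the genotypes. None of the 25 members was 2-fold changed, and their median log2 ratio was -0.12, within a range of -0.83 to 0.49. *Csf1r*, the growth factor receptor that defines macrophages, was at 24.6 FPKM in both genotypes, *Adgre1*, which encodes F4/80, at 15.96 and 16.1, and *Lyz2* at 311 and 305. The lowest log2 ratio in the list was that of *Gpnmb*, which is also expressed in pigment cells, at 390 and 219 (-0.83). *Apoe*, the most abundant member and also made by other skin cells, was at 3153 and 2644 (-0.25).

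Antibody genes were higher in JunB cKO wounds. Of 5 B and plasma cell genes at 10 FPKM or more, 3 were at least 2-fold higher and the median was 1.51. Of the 3, *Igha* and *Jchain* reached 10 FPKM in JunB cKO alone. The median was 1.12 over the 4 genes with a mean of at least 10 FPKM, and 0.73 with a pseudocount of 10. *Igkc*, the constant region of kappa light chains, was at 38.6 and 143 FPKM (1.86). *Igha*, the heavy chain of IgA, was at 7.34 and 32.8 (2.02), and *Jchain*, which joins IgA and IgM subunits, at 3.98 and 13.2 (1.51). *Ighm*, the heavy chain of IgM, differed less, at 18.3 and 24.1 (0.38). *Xbp1*, a factor of plasma cells and other secretory cells, was at 56.2 and 66.3 (0.23). Of 6 B and plasma cell markers, 2 were listed at 0 in at least 1 genotype. T cell genes were low, with *Trbc2*, a T cell receptor constant region, at 9.15 and 21.4 (1.14), and *Cd3g* at 8.31 and 10.7 (0.33).

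Mast cell genes were higher within 2-fold. All 4 members lay above 0, with a median of 0.77 and 0.56 after rescaling. Of the 4, *Tpsb2*, at 6.54 and 11.7 FPKM, reached 10 FPKM in JunB cKO alone, so its ratio had to lie above 0. Over the 3 members with a mean of at least 10 FPKM the median was 0.78. The marker *Kit* was under the limit in both genotypes, at 7.69 and 8.39 (0.11). *Cma1* and *Mcpt4* encode chymases stored in the granules of connective tissue mast cells. *Cma1* was at 29.7 and 51.5 FPKM (0.78), *Mcpt4* at 28.3 and 49.5 (0.79), and *Cpa3*, a granule carboxypeptidase, at 35.7 and 49.1 (0.45). Genes of antigen presentation were also mostly above 0, in 18 of 20 members, and none passed 2-fold. Their median was 0.29, and 14 were above 0 after rescaling. *H2-D1*, a class I heavy chain, was at 183 and 282 (0.62), and *B2m*, its light chain, at 3443 and 4180 (0.28). The 21 interferon-induced genes had a median of 0.21, which was -0.01 after rescaling, with *Ifi27* the highest at 47.4 and 93.6 (0.97).

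Fat cell genes were higher as a group. Of 23 adipocyte genes at 10 FPKM or more, 22 lay above 0, 4 were at least 2-fold higher and none at least 2-fold lower, and the median was 0.61, or 0.40 after rescaling. Of the 4, *Slc2a4* and *Thrsp* reached 10 FPKM in JunB cKO alone, so their direction followed from the level limit. Over the 22 members with a mean of at least 10 FPKM the median was 0.60. *Slc2a4*, the insulin-responsive glucose transporter GLUT4, was at 5.0031 and 23.7 FPKM (2.04), and GLUT4 is also made in muscle. *Thrsp*, a lipogenic protein, was at 7.07 and 23.5 (1.60), and *Retn*, the fat cell hormone resistin, at 14.3 and 38.2 (1.36). *Adipoq*, the hormone adiponectin and the most specific fat cell gene of the list, was at 58.4 and 116 (0.98). *Cfd*, adipsin, was at 304 and 547 (0.84), and *Car3*, an abundant fat cell carbonic anhydrase that muscle makes as well, at 587 and 850 (0.53). *Plin1*, which coats lipid droplets in fat cells, was at 20.5 and 28.5 (0.46). At the other end, *Fabp4* was at 581 and 597 (0.04), and *Lipe*, hormone-sensitive lipase, at 20.8 and 15.99 (-0.36).

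Fatty acid synthesis genes lay above 0 in all 16 members, 3 of them at least 2-fold higher, with a median of 0.60. After rescaling the median was 0.41 and 13 lay above 0. Any member under 10 FPKM in wild type had to lie above 0. Over the 14 members with a mean of at least 10 FPKM the median was 0.53. *Fasn*, fatty acid synthase, at chr11:120805846-120824547, was at 43.2 and 138 FPKM (1.66). *Scd1*, at chr19:44394451-44407709, encodes the desaturase that makes monounsaturated fatty acids in sebocytes and fat cells, and was at 390 and 1009 (1.37). *Acly*, which supplies acetyl-CoA to the pathway, was at 82.4 and 92.6 (0.17) and *Elovl6* at 70.3 and 122 (0.79). *Srebf1*, a transcription factor for these enzymes, was at 35.4 and 42.3 (0.25). Cholesterol synthesis genes did not share this shift. None of 17 was 2-fold changed and their median was -0.12, with *Hsd17b7* the lowest at 31.1 and 21.6 (-0.51).

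Sebaceous gland genes, the group that bears on the gland formation the study examined in these wounds, lay above 0 in 23 of 30 members. Of the 30, 4 were at least 2-fold higher and none at least 2-fold lower, and the median of 0.41 became 0.19 after rescaling, where 1 was at least 2-fold higher, while 1 were lower by 2-fold or more. The 4 were *Scd1*, *Awat1*, *Scd3* and *Far2*. *Awat1* encodes a wax ester synthase of sebocytes and was at 6.19 and 14.2 FPKM (1.08). It reached 10 FPKM in JunB cKO alone, so its direction followed from the level limit. *Scd3*, a desaturase of the sebaceous gland, was at 19.1 and 39.3 (1.01), and *Far2*, which makes fatty alcohols for wax esters, at 27.9 and 56.9 (1.0025). *Elovl4*, an elongase of very long fatty acids, was at 168 and 246 (0.55), *Soat1*, which esterifies cholesterol, at 64.8 and 89.4 (0.46), and *Dgat2* at 25.4 and 35.5 (0.47). *Pparg*, the nuclear receptor shared by sebocytes and fat cells, was at 24.2 and 37.1 (0.59), and *Plin2*, a lipid droplet coat protein, at 100.4 and 125 (0.32). Low-level sebocyte genes were *Awat2*, at 2.58 and 4.57, *Hsd3b6*, at 3.68 and 6.96, and *Mc5r*, the melanocortin receptor of sebaceous glands, at 5.51 and 5.92.

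Other sebaceous gland genes were level or lower. *Mgst1* was at 188 and 183 FPKM (-0.04), and *Fabp5*, a fatty acid carrier of sebocytes and keratinocytes, at 91.6 and 82.0 (-0.16). *Elovl3*, an elongase of sebocytes, was at 12.1 and 14.9 (0.28). *Prdm1*, which encodes the repressor Blimp1, was at 17.1 and 9.90 (-0.73), and *Cbr2*, a carbonyl reductase, at 63.3 and 33.0 (-0.92). Of the 7 sebocyte markers, 6 lay above 0 and 2, *Scd1* and *Fasn*, were at least 2-fold higher. Several genes of this list, among them *Scd1*, *Pparg*, *Cidec* and *Elovl6*, are also genes of the adipocyte or fatty acid lists, and the part of fat cells in their levels was not tested.

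**Figure D3:**
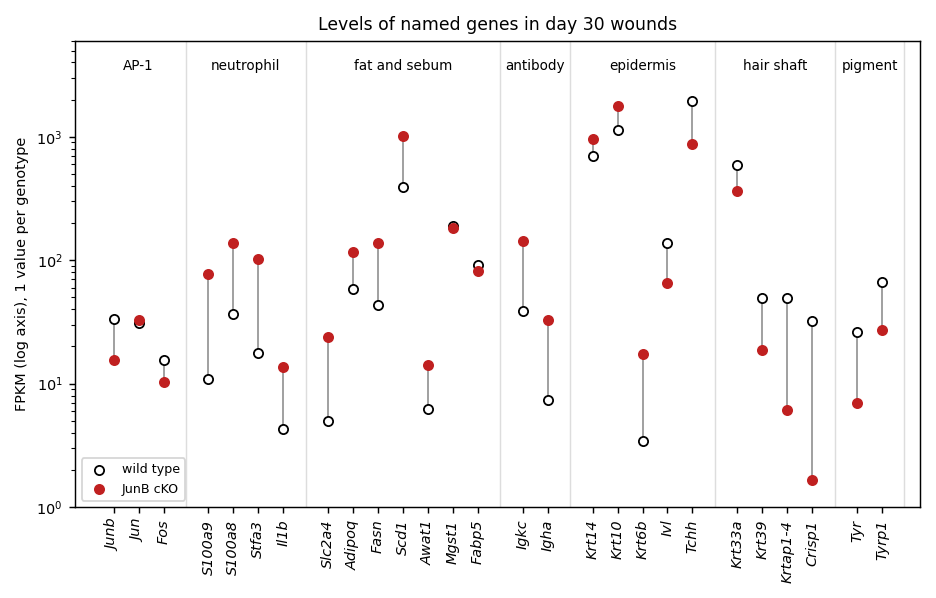
Open circles are wild type and red circles JunB cKO levels in day 30 wounds, in FPKM on a log axis, with 1 value per genotype and gene. *S100a9* stands at 10.9 and 77.5, *Scd1* at 390 and 1009, *Mgst1* at 188 and 183, and *Crisp1* at 32.1 and 1.65.

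Vessel, nerve and blood genes were slightly higher in JunB cKO wounds. All 7 endothelial genes lay above 0, with a median of 0.45 and 5 above 0 after rescaling. Of the 7, *Eng*, *Emcn* and *Cldn5* reached 10 FPKM in JunB cKO alone, so their ratios had to lie above 0. Among endothelial genes under the limit in both genotypes were *Tek*, at 9.12 and 8.77 (-0.05), and *Kdr*, at 4.80 and 6.58 (0.39). *Cdh5*, the cadherin of endothelial junctions, was at 61.5 and 96.9 FPKM (0.65), and *Eng*, endoglin, at 7.77 and 18.6 (1.16). *Eng* contains annotated small RNA genes. *Pecam1* was at 48.7 and 55.6 (0.19). All 6 Schwann cell and nerve genes lay above 0 with a median of 0.28, led by *Mbp*, a myelin protein, at 21.9 and 40.4 (0.86). Of 6 red blood cell genes 4 lay above 0 and 2 below, with a median of 0.64 that was 0.43 after rescaling. The 4 were haemoglobin genes, among them *Hba-a1* at 49.5 and 80.2 (0.68), *Hbb-bs* at 49.7 and 78.6 (0.65) and *Hbb-bt* at 5.39 and 14.5 (1.28). The lower members were *Bpgm*, an enzyme that sets the oxygen affinity of haemoglobin, at 16.4 and 12.5 (-0.37), and *Slc4a1*, the anion exchanger of red cells, at 16.3 and 14.05 (-0.20).

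The dermal matrix was close to the median of all genes. Of 19 collagen chain genes none was 2-fold changed. All 19 lay above 0, with a median of 0.14, but only 9 were above 0 after rescaling, where the median was -0.06. *Col3a1*, the fibrillar collagen of granulation tissue, was at 5055 and 7735 FPKM (0.61) and contains an annotated small RNA gene. *Col1a1*, the main collagen of dermis and scar, was at 2506 and 2673 (0.09), and *Col1a2* at 1314 and 1333 (0.02). Of 30 matrix glycoproteins and proteoglycans none was 2-fold changed and the median was -0.03, from *Podn*, a small proteoglycan at 11.6 and 22.3 (0.88), to *Eln*, elastin, at 57.4 and 36.8 (-0.63). *Postn*, periostin, was at 1762 and 2157 (0.29). Of 24 matrix proteases and inhibitors 2 were at least 2-fold higher. These were *Mmp11*, stromelysin-3, at 39.2 and 84.9 (1.09), and *Mmp23*, at 8.73 and 18.7 (1.02), and neither passed it after rescaling. *Tgfb1*, the growth factor central to scarring, was at 6.88 and 19.3 (1.37), whereas *Tgfb3* was at 10.8 and 7.88 (-0.41) and the receptor *Tgfbr2* at 62.9 and 67.2 (0.09).

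Skeletal muscle genes had a median of 0.12, or -0.10 after rescaling, and none of 27 was 2-fold changed. *Mylpf*, the fast myosin light chain, was at 2499 and 2835 FPKM (0.18), and *Ckm*, muscle creatine kinase, at 425 and 632 (0.57). Smooth muscle and pericyte genes had a median of 0.20, or -0.01 after rescaling, with *Acta2*, the actin of smooth muscle and myofibroblasts, at 72.7 and 82.6 (0.18).

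Basal keratinocyte genes were level between the genotypes. Their 18 members had a median of 0.01, or -0.20 after rescaling, with none 2-fold changed. *Krt5*, the partner of *Krt14* in the basal layer, was at 362 and 357 FPKM (-0.02), and *Trp63*, the master factor of stratified epithelia, at 123 and 116 (-0.08). The integrin *Itga3* was the lowest, at 16.5 and 10.5 (-0.61). Follicle stem cell markers had a median of 0.10, or -0.12 after rescaling. *Cd34* was at 246 and 242 (-0.02), *Lgr5* at 22.3 and 24.3 (0.12), *Lrig1* at 40.2 and 45.8 (0.18) and *Sox9* at 23.3 and 24.2 (0.05), all within 2-fold.

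Suprabasal genes were split. Of 18 members 14 lay below 0, none was 2-fold changed and the median was -0.27. The 2 main suprabasal keratins were higher, *Krt10* at 1141 and 1770 FPKM (0.63) and *Krt1* at 343 and 512 (0.58), whereas *Dsc1*, a desmosomal cadherin, was at 210 and 137 (-0.61) and *Dsg1a* at 139 and 93.9 (-0.56). Tight and gap junction genes lay below 0 in 12 of 14 members, with a median of -0.34. *Gja1*, connexin 43, was at 407 and 273 (-0.58), *Gjb2*, connexin 26, at 230 and 154 (-0.57), and *Cldn1*, the claudin needed for the epidermal barrier, at 119 and 92.6 (-0.36).

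Among 34 cornified envelope genes, 4 were at least 2-fold lower and 1 at least 2-fold higher, with a median of -0.22. After rescaling 6 were lower by 2-fold or more, none was higher, and the median was -0.43. *Ivl*, whose promoter is given above, was at 139 and 65.7 FPKM (-1.07). *Sprr4*, a small proline-rich envelope protein, was at 206 and 81.7 (-1.32), and *Tgm3*, a transglutaminase that cross-links the envelope and the hair, at 33.3 and 12.7 (-1.33). *Tchh*, trichohyalin of the inner root sheath, was at 1945 and 882 (-1.14). *Lce1f* was higher at 6.80 and 16.7 (1.18). *Flg*, filaggrin, was at 261 and 279 (0.10), *Lor*, loricrin, at 52.9 and 55.6 (0.07), and *Crnn*, cornulin, at 899.6 and 494 (-0.86). The *Lce1* and *Sprr2* genes are families of similar copies, so reads may be split between them. Of 19 ceramide and barrier lipid genes *Far2* alone passed the limit, and of 10 kallikreins and epidermal protease inhibitors *Klk8*, a serine protease of the upper epidermis, was at 8.53 and 22.6 (1.31).

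Hair shaft genes were lower in JunB cKO wounds. Of 14 hair shaft keratins 13 lay below 0, 2 were at least 2-fold lower, none was at least 2-fold higher, and the median was -0.64. The most abundant, *Krt33a*, was at 594 and 365 FPKM (-0.70). *Krt39* was at 49.5 and 18.8 (-1.35), and *Krt32*, a keratin of the hair cuticle, at 53.2 and 24.97 (-1.06). *Krt82* was the exception at 17.7 and 20.3 (0.18). *Krt31* and *Krt35*, which mark the cortex, were at 121 and 88.8 (-0.44) and at 52.6 and 39.9 (-0.39).

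Keratin-associated proteins, which fill the space between keratin filaments in the hair, lay below 0 in 45 of 47 members. Of the 47, 12 were at least 2-fold lower and 1 at least 2-fold higher, with a median of -0.55. The largest decreases were those of *Krtap1-4*, at 49.6 and 6.11 FPKM (-2.83), *Krtap13-1*, at 57.7 and 11.3 (-2.25), *Krtap1-3*, at 124 and 27.6 (-2.13), and *Krtap4-9*, at 91.0 and 26.3 (-1.75). The single opposite case was *Krtap20-2*, at 33.2 and 174 (2.35). Abundant members differed less, with *Krtap19-5* at 1941 and 1249 (-0.64). The genes are short and lie in clusters of near-identical copies, so single members are uncertain where reads could be split.

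The inner root sheath, the cell layers that mould the growing hair, showed the same direction. Of 11 members 10 lay below 0, 3 were at least 2-fold lower and the median was -0.53. *Krt26* was at 299 and 132 FPKM (-1.18), *Krt28* at 486 and 240 (-1.02) and *Krt71*, the keratin of the Huxley and Henle layers, at 1623 and 1197 (-0.44). Hair matrix and follicle regulators were mixed, with a median of -0.25 over 14 members. *Crisp1*, a secreted cysteine-rich protein also known from the epididymis, at chr17:40293758-40319207, had the lowest log2 ratio of the list at 32.1 and 1.65 (-3.64). *Dsc2*, a desmosomal cadherin, was at 62.8 and 16.6 (-1.86), and *Dsg4*, the desmoglein of the hair cortex, at 63.5 and 32.3 (-0.95). *Msx2*, a factor of the hair matrix, was at 24.7 and 14.96 (-0.69), whereas *Lef1*, which carries Wnt signals there, was at 12.6 and 15.02 (0.23).

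Pigment cell genes were lower together. All 9 melanocyte genes lay below 0, 2 were at least 2-fold lower and the median was -0.66. *Tyr*, tyrosinase, the rate-limiting enzyme of melanin synthesis, at chr7:87424771-87493512, was at 26.2 and 6.91 FPKM (-1.78), and *Tyrp1*, its relative in the same pathway, at 66.1 and 27.1 (-1.25). *Dct* was at 63.3 and 35.2 (-0.83), and *Pmel*, the scaffold of the pigment granule, at 27.5 and 17.0 (-0.66). The factor *Mitf*, which other cells use as well, was at 44.0 and 39.7 (-0.14). In mouse back skin pigment cells work in growing follicles, and the levels of the hair shaft genes and of these genes moved together across the genotypes. Whether the biopsies held equal numbers of growing follicles was not tested.

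Cell division genes were slightly lower, with 23 of 31 members below 0 and a median of -0.20. *Ccne2*, cyclin E2, was at 57.4 and 24.1 FPKM (-1.22), the only member past the limit. *Mki67* was at 46.0 and 35.4 (-0.37), *Top2a* at 55.9 and 36.2 (-0.61) and *Cdk1* at 20.7 and 12.6 (-0.67). At the other end were the nucleotide synthesis genes *Tk1*, at 10.2 and 19.8 (0.90), and *Tyms*, at 10.3 and 17.2 (0.68). *Ccnd2*, cyclin D2, was at 150 and 46.7 (-1.66), whereas *Ccnd1* was at 22.8 and 29.9 (0.38) and *Cdkn1a*, which encodes the cell cycle inhibitor p21, at 21.9 and 26.6 (0.27).

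Notch genes, which the study followed as a pathway downstream of JunB, stayed within 2-fold in these wounds. The study reported Notch upregulation after hair plucking, in RNA and on Western blots, and JunB binding at the *Notch1* and *Notch4* promoters. It also gave a Notch inhibitor to wounded JunB cKO mice and saw no ectopic sebaceous glands in their healing epithelium. The values here are RNA levels of wounds without the inhibitor. None of 17 members passed the limit and the median was -0.02, equal to that of all genes at this precision. The receptors *Notch1* and *Notch2* were at 41.7 and 47.2 FPKM (0.17) and at 29.7 and 30.5 (0.04), and *Notch3* was under the limit for inclusion at 5.65 and 8.40. The ligand *Jag2* was at 8.49 and 11.3 (0.38). The target *Hes1*, a repressor switched on by Notch, was at 24.6 and 31.8 (0.36), *Nrarp*, a feedback inhibitor, at 18.2 and 19.8 (0.12), and *Rbpj*, the DNA-binding partner, at 33.4 and 30.5 (-0.13). *Numb*, a Notch antagonist, was the lowest at 23.7 and 19.6 (-0.26), and *Myc*, a target shared with other pathways, the highest (0.72).

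Among 22 genes of metal binding and oxidative stress *Gsta3*, a glutathione transferase, was the only one past the limit, at 5.42 and 12.99 FPKM (1.12). Of 34 replication-dependent histone genes, a family of similar copies, *Hist1h2ak* was at 11.9 and 28.01 (1.17) and *Hist1h2ab* at 12.3 and 5.04 (-1.14). None of the 14 heat shock genes was 2-fold changed, 12 lay below 0 and the median was -0.17. The lowest was *Hsp90aa1*, the inducible cytosolic HSP90 chaperone, at 231 and 177 (-0.38), and the highest *Hspa8*, the constitutive chaperone, which contains snoRNA genes, at 1448 and 2038 (0.49).

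Other signalling lists were also near the median. Of 22 Wnt genes *Rspo1*, which amplifies Wnt signals, was at 2.84 and 10.5 FPKM (1.58) and the only one past the limit. *Axin2*, a target of the pathway, was at 10.3 and 16.4 (0.63), and *Wnt5a* at 22.8 and 15.2 (-0.56). No gene of the Hedgehog pathway or of the EGF receptor family passed it, with *Egfr* at 96.3 and 113 (0.22) and *Areg*, one of its ligands, at 10.6 and 8.43 (-0.30). Housekeeping lists were centred: 74 ribosomal protein genes had a median of 0.00 and 71 nuclear genes of oxidative phosphorylation a median of 0.04, which was -0.17 after rescaling. Their exceptions were *Rpl5*, at 2327 and 7441 (1.68), which contains snoRNA genes, *Cox6a2*, a cytochrome oxidase subunit of heart and muscle, at 19.9 and 42.5 (1.06), and *Ndufc1*, at 164 and 79.5 (-1.04).

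Single genes outside these lists had the largest log2 ratios of all. Leaving out predicted genes, small RNAs and unnamed clones, the 15 genes with the highest ratios ran from *Tfcp2l1*, a transcription factor at 0.460 and 16.5 FPKM (3.58), to *Igha*. *Kansl1*, a subunit of a histone acetyltransferase complex, was at 19.2 and 154 (2.94), *Tmem143* at 3.45 and 24.7 (2.53), and *Kank3* at 5.53 and 27.8 (2.14). *Tbrg4* was at 50.03 and 218, *Hemk1* at 3.01 and 17.3 (2.19) and the glycosylation enzyme *Alg3* at 4.29 and 22.2 (2.14). The remaining ones were *Bach2os*, an antisense gene at 0.816 and 14.2 (3.07), and the zinc finger gene *Zfp950*, at 29.2 and 122 (2.02). At the other end, *Zfp618* was at 26.2 and 0.972 (-3.79), *Apba3* at 62.2 and 5.92 (-3.19), and *Glce*, an enzyme of heparan sulfate synthesis, at 189 and 21.5 (-3.08). *Prmt2*, an arginine methyltransferase, was at 29.4 and 3.30 (-2.82), *Lin7b* at 10.2 and 0.928 (-2.54), *Cd27*, a lymphocyte receptor, at 19.0 and 2.50 (-2.52), and *Cnnm4* at 16.1 and 2.40 (-2.33). *Prss36*, shown above, was at 10.1 and 1.54 (-2.13). Pseudogenes of ribosomal and polymerase genes were among the lowest too, *Polr2k-ps* at 63.9 and 0, *Rpl30-ps2* at 14.8 and 1.33 (-2.76), and *Rpl30-ps3* at 10.9 and 1.36 (-2.33).

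Many of these extremes contain an annotated small RNA gene on the same strand within their borders. This holds for 3 of the 15 highest, *Tfcp2l1*, *Kansl1* and *Tbrg4*, and for 5 of the 15 lowest, *Apba3*, *Glce*, *Prmt2*, *Cd27* and *Cnnm4*. Across all protein-coding genes, 748 contain one, of which 20 were at least 2-fold higher (2.67%), while 9 were lower by 2-fold or more (1.203%). Of the other 6857, 129 were at least 2-fold higher (1.88%), while 109 were lower by 2-fold or more (1.59%). Whether reads of the small RNAs entered these values was not tested.

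Gene types differed widely in how often they passed the limit. The 851 genes that are not annotated as protein-coding held 197 of the 346 higher and 168 of the 286 lower genes, with shares of 23.1% and 19.7%. Of 176 small nucleolar RNA genes, which guide modification of ribosomal RNA, 76 were at least 2-fold higher and 38 lower, with a median of 0.71. Of 107 small nuclear RNA genes 38 were higher and 42 lower. Of 59 microRNA genes 20 were higher and 27 lower, with a median of -0.89. Of 73 processed pseudogenes 15 were higher and 18 lower. The small RNA genes have a median annotated transcript length of 129 bases, against 3180 for protein-coding genes, and 67 of the 76 genes at 0 in wild type and 100 of the 118 at 0 in JunB cKO are small RNA genes.

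**Figure D4:**
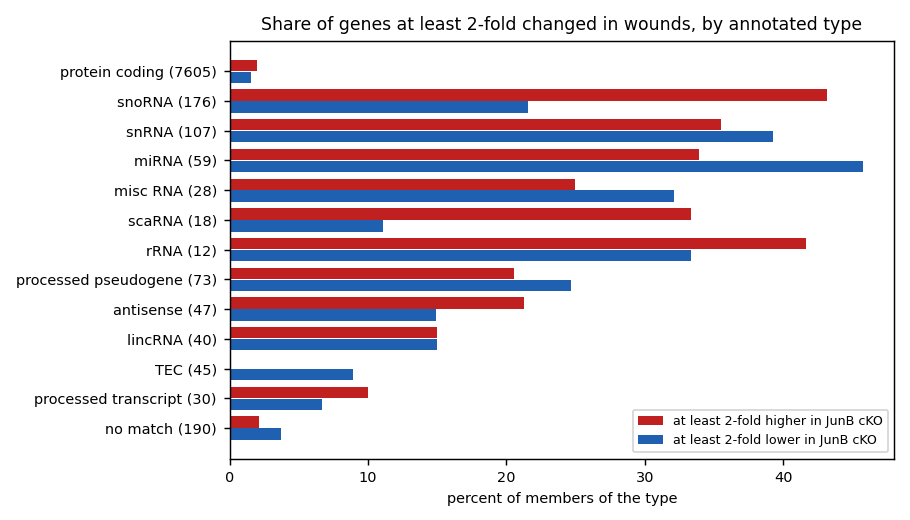
Bars give the percent of genes of each GENCODE type that were at least 2-fold higher (red) or lower (blue) in JunB cKO wounds, with the number of genes at 10 FPKM or more in brackets. The bars of protein-coding genes stand at 1.96% and 1.55%, and those of snoRNA genes at 43.2% and 21.6%.

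Among the most abundant transcripts were small RNAs and genes that host them. *Rn7sk*, the 7SK RNA that restrains transcription elongation, was at 62347 and 73833 FPKM (0.24). *Rny1* and *Rny3*, Y RNAs bound by the Ro protein, were at 15406 and 35044 (1.19) and at 12921 and 24997 (0.95). *Rmrp*, the RNA of a processing ribonuclease, was at 15052 and 21785 (0.53). *Eif4a1*, a translation factor gene with 3 small RNA genes inside, was at 14224 and 23481 (0.72), and *Actb*, which has none, at 9789 and 10396 (0.09).

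Plucked skin at day 4 was set beside the wounds because the same deletion was sequenced there, in 1 library per genotype. The tables were normalised separately. Of 8553 genes at 10 FPKM or more in plucked skin, 13.1% were 2-fold or more above wild type and 12.3% were 2-fold or more below it, larger shares than in the wounds. Of the 8456 wound genes, 7239 also reached 10 FPKM there. Over these shared genes 10.03% were 2-fold or more above wild type in plucked skin and 10.6% were 2-fold or more below. Among them, 164 were at least 2-fold higher in wounds, of which 56 were at least 2-fold higher, while 45 were lower by 2-fold or more in plucked skin. Of 113 at least 2-fold lower in wounds, 28 were at least 2-fold lower and 45 at least 2-fold higher there. Of the protein-coding genes among them, 94 were at least 2-fold higher in wounds, and 19 of these were 2-fold or more above wild type in plucked skin and 28 were 2-fold or more below. Of 68 protein-coding genes lower by 2-fold or more in wounds, 22 were above and 14 below by as much in plucked skin.

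*Junb* was lower in both settings, at 40.8 and 11.7 FPKM in plucked skin (-1.71) beside -1.06 in wounds. *S100a9* was higher in both, at 2.56 and 250 in plucked skin (6.14), and *S100a8* was listed at 0 in wild type there and reached 152 FPKM in JunB cKO. *Krt6b* was at 7.90 and 59.2 (2.76), *Lcn2* at 2.32 and 13.05 (2.08), *Chil1* at 10.5 and 77.4 (2.77) and *Il17rc* at 8.86 and 41.8 (2.12), each at least 2-fold higher in wounds too. *Sprr4* was lower in both, at 654 and 134 in plucked skin (-2.28). Lipid and hair genes had opposite directions. The 16 adipocyte genes that reached 10 FPKM in plucked skin had a median of -1.05 there, and the 14 fatty acid synthesis genes one of -0.65. Of these, 4 and 1 in that order reached 10 FPKM in wild type alone, so their ratios had to lie below 0. The 26 sebaceous gland genes had a median of -0.64, with none at least 2-fold higher, while 7 were lower by 2-fold or more. Some other lists were lower there too. The 11 skeletal muscle genes had a median of -2.32 and the 23 macrophage genes one of -1.32. Of these, 7 and 13 in that order reached 10 FPKM in wild type alone, so their ratios had to lie below 0. The 16 collagen chain genes had a median of -0.75. Above 0 were the medians of cell division genes, at 0.70, and basal keratinocyte genes, at 0.46. Whether the plucked biopsies held equal shares of each tissue layer was not tested. Of 24 keratin-associated protein genes 22 were at least 2-fold higher in plucked skin. Of these 24 genes, 20 were under 10 FPKM in wild type and were included through JunB cKO alone, so that a ratio above 0 followed from the level limit. The difference between wounds and plucked skin was not tested.

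**Figure D5:**
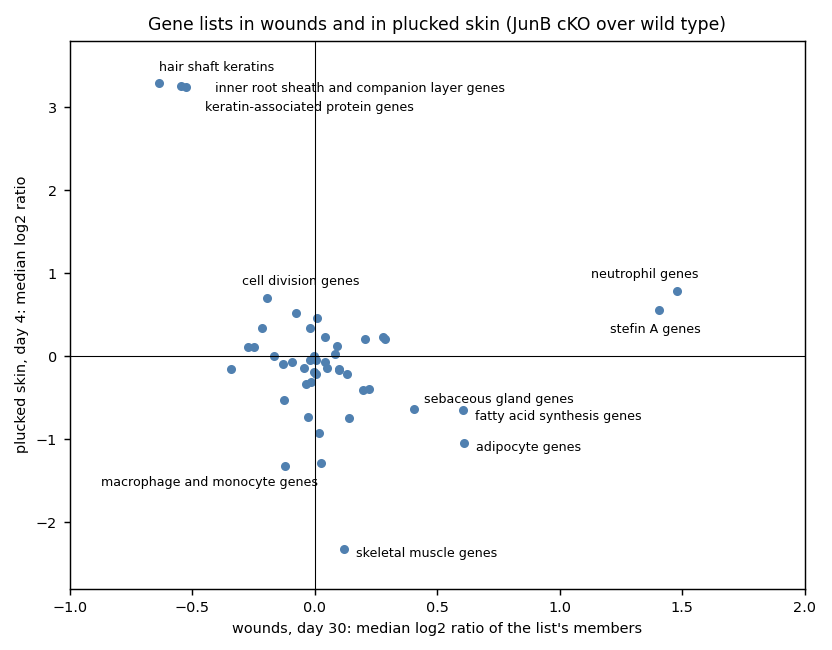
Each point is a gene list with at least 5 members in both settings, by the median log2 ratio of JunB cKO over wild type of its wound members (x axis) and of those that also reached 10 FPKM in plucked skin (y axis). The neutrophil genes stand at 1.48 and 0.79, the adipocyte genes at 0.61 and -1.05, and the hair shaft keratins at -0.64 and 3.29.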

How the data were processed

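Wild type and JunB cKO wound biopsies at day 30 (2 libraries per genotype in the labels) were depleted of ribosomal RNA and sequenced as stranded single-end libraries by the authors. Per the study's methods and the submitters' processing notes, reads were trimmed and aligned to mm10 (GRCm38), and Cufflinks and Cuffdiff gave the deposited FPKM values, 1 per genotype and locus. The tables also hold the authors' fold changes, test statistics, p-values and q-values, which were not used. Whether the value joins both libraries, and the depth, are not given in the sources used here.

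Genes at 10 FPKM or more in either genotype were kept, and log2 ratios used a pseudocount of 1 FPKM. With 1 value per genotype no test was run. A 2-fold limit served as the call, and a list as shifted at 5 or more members and a median of 0.5 or more in size. The authors' columns were matched to genotypes by the names inside the table. Members and lists were chosen with earlier results of these data known. Named genes were the Jun and Fos genes, the 15 highest and 15 lowest ratios without predicted genes, small RNAs and clones, in each list the most abundant, highest, lowest and 2-fold changed members (the 4 largest of each direction where over 8 changed), and the sebaceous, Notch and tissue marker genes. A few single genes are not reported here. Other list genes named were chosen after their values were seen. Gene types, borders and GC content came from GENCODE M21, promoters from RefSeq (GRCm38.p6). Calculations used Python 3.11.15, numpy 2.4.6 and pandas 2.3.3 and were tested on simulated data.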

Additional observations from a re-analysis of the deposited data

Results flagged for a closer look

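Some gene lists and genes had opposite directions in JunB cKO wounds and in JunB cKO plucked skin. The differences rest on 1 value per genotype in each setting and were not tested. Hair shaft keratins had a median log2 ratio of -0.64 in wounds and 3.29 in plucked skin, inner root sheath and companion layer genes -0.53 and 3.24, and keratin-associated protein genes -0.55 and 3.25. The plucked skin medians rest on fewer members, 5 of 14, 9 of 11 and 24 of 47 in that order. Of these, 4, 7 and 20 were under 10 FPKM in wild type plucked skin and were included through JunB cKO alone, so that ratios above 0 there followed from the level limit. Fatty acid synthesis genes had medians of 0.60 and -0.65, and adipocyte genes 0.61 and -1.05, with 14 of 16 and 16 of 23 members in plucked skin. Of these, 1 and 4 were under 10 FPKM in JunB cKO plucked skin and were included through wild type alone, so their ratios had to lie below 0. Another adipocyte gene was under 10 FPKM in wild type and had to lie above 0.

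Among single genes named by the rule, 12 were at least 2-fold changed in opposite directions. Lower in wounds and higher in plucked skin were *Ccne2* (-1.22 and 2.33), *Krt26* (-1.18 and 1.54), *Krt28* (-1.02 and 3.76), *Lin7b* (-2.54 and 3.70), *Ndufc1* (-1.04 and 2.70), *Tchh* (-1.14 and 3.37), *Rpl30-ps2* (-2.76 and 4.81) and *Rpl30-ps3* (-2.33 and 3.92). Higher in wounds and lower in plucked skin were *Far2* (1.0025 and -1.10), *Mmp11* (1.09 and -4.21), *Rpl5* (1.68 and -2.09) and *Trbc2* (1.14 and -1.05). *Krt28*, *Lin7b*, *Rpl30-ps2* and *Rpl30-ps3* were listed at 0 in wild type plucked skin. Another 15 named genes were at least 2-fold changed in the same direction in both settings.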

How the results depend on the processing

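No paired analysis was possible because the table holds 1 value per genotype, and no library could be left out for the same reason. Counts of genes at least 2-fold higher and lower (346 and 286) became 212 and 190 with a pseudocount of 10 FPKM, 987 and 907 with a minimum of 1 FPKM, 184 and 143 with a minimum of 30 FPKM, 146 and 99 without predicted genes, small RNAs, pseudogenes and clones, and 803 and 703 at a 1.5-fold limit. Rescaling to the same sum gave 260 and 420 and a median of all genes of -0.23. Chosen after seeing the data, protein-coding genes alone gave 149 and 118, those without a small RNA gene inside 129 and 109, and those centred within classes of GC content 139 and 121. The other alternatives (pseudocount 0.1, mean level, centring, summed loci, loci with status OK) moved no count by over 1.5 times.

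No list with a median of at least 0.5 in size changed sign under the 13 alternatives. The size fell under 0.5 for fatty acid synthesis genes in 3 of them, for adipocyte and melanocyte genes in 2 each (melanocyte genes to -0.40), and for keratin-associated protein genes (-0.49) and red blood cell genes (0.43) in 1 each. B and plasma cell genes ranged from 0.73 to 1.86 and stefin genes from 0.61 to 1.53. Hair shaft keratins ranged from -0.85 to -0.59, neutrophil genes from 0.73 to 1.89, adipocyte genes from 0.40 to 0.63 and fatty acid synthesis genes from 0.38 to 0.64. Of 77 named genes at least 2-fold changed, 33 fell under the limit with a pseudocount of 10 and 11 on rescaling. Depth bounds the counting error only, and the spread between libraries or animals is unknown.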
